A study of Mus musculus with 19 samples.

Results

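The natural killer (NK) cell receptor complex is a cluster of lectin-like receptor genes on mouse chromosome 6. From it and its surroundings 9 genes were taken by symbol (Klrb1a, Klrb1b, Klrb1c, Klrb1f, Klrc1, Klrd1, Klrk1, Klrg1 and Clec2d), together with BC064078, a gene annotated as a long non-coding RNA that lies among them. Klrg1 lies farther off on the same chromosome. A gene was measured where a probe set was annotated to its symbol and no other. That left 9 of the 10 genes, each with 1 probe set, among 22180 genes in all. Klrb1a shares its only probe set with Klrb1c and has no value of its own. BC064078 was picked because it was high in 1 of the mouse lines in these same arrays, so its differences between that line and the others are given as a description, without a test.

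Total RNA of whole spleens from 19 mice was hybridised to Affymetrix arrays, 1 array per biological replicate. Except in controls, human HGAL, a germinal centre B cell gene, sat at the Rosa26 locus and was switched on where Cre recombinase is active. In the tumour-bearing groups, Aid-Cre (n = 4) acts in activated B cells, Mb1-Cre (n = 5) in the B cell lineage from its early precursors and Sca1-Cre (n = 4) in blood stem and progenitor cells. The same Rosa26-HGAL, Sca1-Cre genotype was also sampled before tumours appeared (pre-tumour, n = 3), and the controls were wild type spleens (n = 3). Aid-Cre and Mb1-Cre were not sampled before tumours, and no group carried Cre or HGAL alone, so line, Cre driver and tumour cannot be told apart in those 2 lines. All mice lived in a conventional facility with common pathogens. Age, strain and sex are not in the labels used here.

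NK cells kill infected or transformed cells according to a balance between activating and inhibitory receptors. Klrb1 receptors bind Clec2 proteins, the pair Klrd1 and Klrc1 binds the non-classical MHC molecule Qa-1, and Klrk1 (NKG2D) binds stress-induced MHC-like ligands. Several of these receptors also appear on activated CD8 T cells and on NKT cells, so in whole spleen their RNA has more than 1 cellular source. In bulk RNA, fewer cells of a type and less RNA per cell cannot be told apart.

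The values are log2 expression after robust multi-array average (RMA) normalisation, and all differences below are on that log2 scale. Groups were compared with limma in 1 fit over all 19 arrays, and a called gene is one whose p, adjusted over all 22180 genes by the Benjamini-Hochberg method, fell under 0.05. The number of mice limits the precision. The p-values measure the spread between these mice only. An NK index, the mean of Ncr1, Eomes, Gzma, Prf1, S1pr5, Nkg7, Cd244a and Il2rb, served as the measure of NK cell content. It contains none of the genes described. Sex was uneven: Xist read above the Y-linked gene Kdm5d, as in females, in 3 of 4 Aid-Cre, 1 of 5 Mb1-Cre, 2 of 4 Sca1-Cre tumour, 2 of 3 pre-tumour and 0 of 3 wild type arrays. Neutrophil markers (6 of 6 listed measured) ranged from 11.30 to 11.77 in Mb1-Cre tumours and from 8.07 to 10.41 in wild type. B cell markers (7 of 8 measured) reached down to 7.59 in 1 Aid-Cre tumour. Exocrine pancreas markers (6 of 8 measured) were highest in Mb1-Cre replicate 2, at 7.68, and wild type replicate 2, at 5.82.

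The promoters of Klrb1a, Klrb1c, Klrb1b and Klrk1 are shown, the last because Klrk1 behaves differently from Klrb1c below. They are RefSeq windows of GRCm38.p6 from 250 bases before to 50 bases after the gene's start, and all 4 genes lie on the minus strand: Klrb1a at chr6:128622885-128623184, Klrb1c at chr6:128788592-128788891, Klrb1b at chr6:128826266-128826565 and Klrk1 at chr6:129623815-129624114. Capitals mark the letters TGTGGT (the core bound by Runx factors) or GGTGTG (the core bound by T-box factors such as Eomes).
Klrb1a: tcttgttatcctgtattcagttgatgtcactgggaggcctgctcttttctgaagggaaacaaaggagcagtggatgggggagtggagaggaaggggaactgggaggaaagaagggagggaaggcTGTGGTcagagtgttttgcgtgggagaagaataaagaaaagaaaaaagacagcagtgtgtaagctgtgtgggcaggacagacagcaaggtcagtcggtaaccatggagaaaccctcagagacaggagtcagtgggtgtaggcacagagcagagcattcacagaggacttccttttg
Klrb1c: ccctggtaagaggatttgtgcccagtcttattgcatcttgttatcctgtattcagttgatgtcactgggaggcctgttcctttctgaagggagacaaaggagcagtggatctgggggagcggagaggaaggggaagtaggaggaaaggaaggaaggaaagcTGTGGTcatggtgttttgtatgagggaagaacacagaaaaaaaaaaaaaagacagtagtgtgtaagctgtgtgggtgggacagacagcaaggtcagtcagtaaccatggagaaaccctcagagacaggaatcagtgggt
Klrb1b: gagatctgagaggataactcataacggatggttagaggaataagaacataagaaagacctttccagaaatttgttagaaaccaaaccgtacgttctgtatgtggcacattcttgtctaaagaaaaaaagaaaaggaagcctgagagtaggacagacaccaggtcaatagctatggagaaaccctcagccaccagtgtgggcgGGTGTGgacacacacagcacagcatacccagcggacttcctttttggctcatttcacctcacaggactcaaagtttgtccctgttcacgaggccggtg
Klrk1: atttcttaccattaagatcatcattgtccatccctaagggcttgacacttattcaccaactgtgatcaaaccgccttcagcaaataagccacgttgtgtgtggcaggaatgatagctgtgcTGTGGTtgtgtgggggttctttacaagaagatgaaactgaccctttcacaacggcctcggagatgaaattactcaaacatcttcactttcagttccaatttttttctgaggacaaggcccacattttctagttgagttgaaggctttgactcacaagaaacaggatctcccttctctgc
Both strands were searched, and the 2 motifs and a STAT palindrome, TTCNNNGAA, did not overlap at any match. The Runx core was present in 4 of the 7 genes with a promoter in the RefSeq table (Klrb1a, Klrb1c, Klrc1 and Klrk1), against 16.9% of all 27025 promoters. Its first base lay at position -126 of Klrb1a, -89 of Klrb1c and -129 of Klrk1, counted from the gene's start. The T-box core was in 2 of the 7, Klrb1b at -48 and Klrb1f at -123 and -58, against 19% of all promoters, and the STAT palindrome was in Klrb1f alone, against 8.47%. The windows of Klrb1a and Klrb1c were identical at 236 of 340 aligned positions, or 69.4%. Klrb1b and Klrb1f shared 58.3%, and the other pairs of the 7 genes 41.5% to 48.5%. These matches describe letters and are not evidence of binding. Klrd1, Klrg1 and BC064078 have no entry.

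Klrb1c encodes NK1.1, the activating receptor used to recognise NK cells in some mouse strains. Its level was higher in Aid-Cre tumours than in every other group, in a pattern that the NK index did not share. The 4 Aid-Cre tumours read 5.11, 5.60, 5.30 and 5.68, with a mean of 5.42 ± 0.27 (SD, n = 4). The 5 Mb1-Cre tumours read 4.30, 4.91, 3.75, 4.05 and 3.55, with a mean of 4.11 ± 0.53 (SD, n = 5). Every Aid-Cre value lay above every Mb1-Cre value, as for 1.1% of all genes. Sca1-Cre tumours read 4.31, 4.42, 4.06 and 4.44, pre-tumour spleens 4.45, 4.86 and 4.47, and wild type spleens 4.35, 4.56 and 4.92. These 3 groups overlapped Mb1-Cre tumours, while none of their arrays reached the lowest Aid-Cre value.

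Between Aid-Cre and Mb1-Cre tumours, Klrb1c rose by 1.31 ± 0.22 (SE; limma, adjusted p = 0.0472), and it was the only gene of the 9 called. In that comparison 10 of 22180 genes passed, or 0.0451%, and 3 of them, 0.0135%, were higher in Aid-Cre. The genes were chosen with line differences of these arrays known, so the call is not independent support. It lies at the threshold: leaving out any single array kept the difference between 1.17 and 1.51, but the call held only without Mb1-Cre replicate 1 or without Mb1-Cre replicate 2. In the other 17 of 19 such fits, whichever of the remaining arrays was left out, the adjusted p rose above the threshold, up to 0.235. With sex as a covariate the difference was 1.27 ± 0.24 (limma, adjusted p = 0.161).

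Most Klrb1c values outside the Aid-Cre group fell below the 40th percentile of their arrays, which lay between 4.72 and 4.90, so those levels are close to background. The probe set shared by Klrb1a and Klrb1c did not separate the lines. It read 5.06, 4.63, 5.18 and 5.03 in Aid-Cre tumours and 6.16, 4.85, 4.62, 4.60 and 4.19 in Mb1-Cre tumours. Its highest value came from Mb1-Cre replicate 1, whose own Klrb1c probe set read 4.30. The part of the Klrb1a transcript in this signal was not tested.

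Against wild type, Klrb1c was 0.81 ± 0.25 higher in Aid-Cre tumours without passing the test (limma, adjusted p = 0.394). None of the 9 genes was called there, where 0.018% of all genes were. The groups did not overlap, as was the case with higher values in Aid-Cre for 3.75% of all genes. Mb1-Cre tumours were 0.50 lower than wild type (SE 0.24; limma, adjusted p = 0.444), with overlapping values, and again 0 of the 9 genes were called, as were 0% of all genes (limma, 2514 of 22180 at an unadjusted p under 0.05). Both comparisons use the same 3 wild type arrays. Beside Sca1-Cre tumours, Aid-Cre tumours were 1.12 ± 0.23 (SE) higher and again did not overlap, as for 3.05% of genes. Within the Sca1-Cre genotype, tumours read below pre-tumour spleens without overlap, narrowly, as did 4.51% of genes.

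Klrb1b, an inhibitory receptor for Clec2d and the measured gene next to Klrb1c, differed in the same direction. Aid-Cre tumours read 4.48, 5.88, 4.75 and 4.88 and Mb1-Cre tumours 4.33, 4.32, 3.84, 4.26 and 3.94, without overlap, as for 1.1% of genes with the higher values in Aid-Cre. Apart from 5.88 in Aid-Cre replicate 2, these values lay within or below the 40th percentiles of the arrays (4.72 to 4.90), close to background. The difference of 0.86 ± 0.24 (SE) did not pass (limma, adjusted p = 0.343). Aid-Cre replicate 2 stood highest of all 19 arrays, and it was also the array with the lowest NK index of its group, 7.08. Without it the difference was 0.57 ± 0.20 (SE; limma, adjusted p = 0.238). Wild type arrays, at 4.27, 4.50 and 5.08, overlapped both lines. Within groups, Klrb1b and Klrb1c deviated together with r = 0.49 over the 19 arrays.

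Klrb1f, an activating receptor for other Clec2 proteins, showed no line pattern. It read 7.76 to 8.05 in Aid-Cre tumours, 7.22 to 8.84 in Mb1-Cre tumours and 7.34 to 8.23 where Sca1-Cre tumours had formed, with 6.94 to 8.53 before tumours and 7.20 to 8.44 in wild type. All groups overlapped, and Aid-Cre minus Mb1-Cre was -0.19 ± 0.34 (SE; limma, adjusted p = 0.909). Klrb1, a further family member beside Klrb1c, read 5.04, 4.51, 4.67 and 4.64 in Aid-Cre tumours and at most 4.47 in Mb1-Cre tumours. Its values did not overlap, as for 1.1% of genes with the higher values in Aid-Cre, and lay close to background. Its difference of 0.37 ± 0.24 (SE) did not pass (limma, adjusted p = 0.690).

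**Figure D1:**
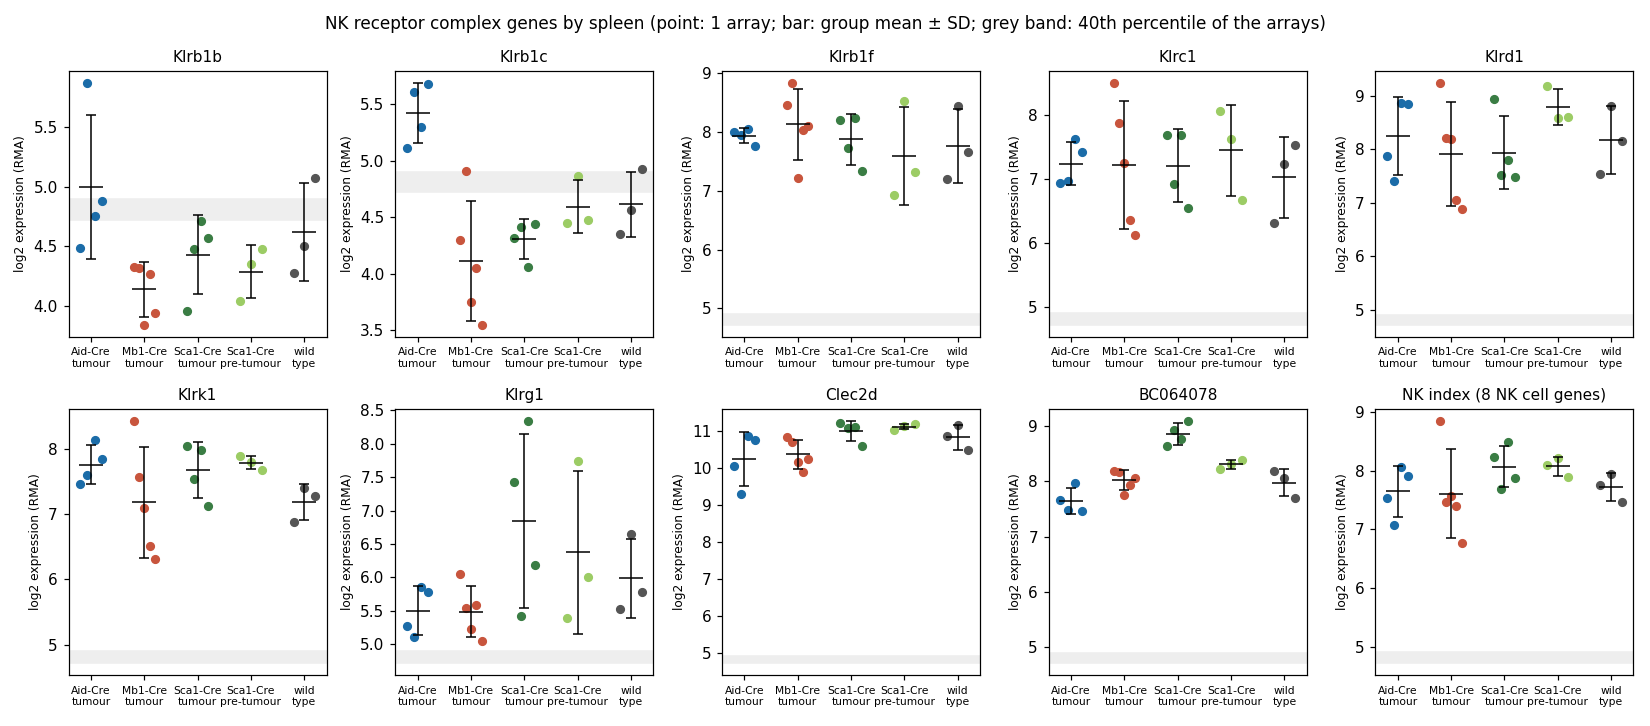
Log2 expression of the 9 measured genes and of the NK index in each spleen, by group; points are single arrays, bars the group mean ± SD, and the grey band the 40th percentile of the arrays (4.72 to 4.90). Klrb1c is highest in the 4 Aid-Cre tumours (5.11 to 5.68) and BC064078 in the 4 Sca1-Cre tumours (8.64 to 9.09), whereas the receptors Klrc1, Klrd1 and Klrk1 spread widely within the Mb1-Cre group.

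Klrk1, Klrd1 and Klrc1 varied more between spleens of the Mb1-Cre line than between lines. Klrk1, the activating receptor NKG2D, read 7.46, 7.59, 8.13 and 7.85 in Aid-Cre tumours, 8.42, 7.57, 7.08, 6.50 and 6.31 in Mb1-Cre tumours. Sca1-Cre tumours read 8.04, 7.54, 7.98 and 7.12. Pre-tumour spleens read 7.88, 7.80 and 7.67 and wild type spleens 6.87, 7.40 and 7.28. Mb1-Cre replicate 1 had the highest value of all 19 and Mb1-Cre replicate 5 the lowest. Aid-Cre and wild type values did not overlap, as for 3.75% of genes with the higher values in Aid-Cre, and the difference of 0.57 ± 0.38 (SE) did not pass (limma, adjusted p = 0.730). Pre-tumour values lay above wild type without overlap as well, as for 8.35% of genes. Aid-Cre tumours were 0.58 ± 0.33 (SE) above Mb1-Cre tumours, with overlap (limma, adjusted p = 0.647).

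Klrd1 (CD94), the common partner of the NKG2 receptors, read 7.87, 7.41, 8.87 and 8.84 in Aid-Cre tumours and 9.25, 8.21, 8.20, 7.05 and 6.88 in Mb1-Cre tumours. Sca1-Cre tumours ranged from 7.49 to 8.94, pre-tumour spleens from 8.58 to 9.19 and wild type from 7.53 to 8.81. Klrc1 (NKG2A), the inhibitory partner of Klrd1, had its extremes in the same line, from 6.13 in Mb1-Cre replicate 5 to 8.50 in Mb1-Cre replicate 1. Its Aid-Cre values of 6.94, 6.97, 7.62 and 7.43 lay inside that range. Aid-Cre minus Mb1-Cre was 0.33 ± 0.46 for Klrd1 (SE; limma, adjusted p = 0.876) and 0.02 ± 0.44 for Klrc1 (SE; limma, adjusted p = 0.995). The 3 receptors moved with each other within groups: r was 0.92 for Klrc1 and Klrk1, 0.87 for Klrd1 and Klrk1, and 0.84 for Klrc1 and Klrd1. Genes on 1 array share its RNA and its cell composition, so these correlations are a description.

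Klrg1, an inhibitory receptor of mature NK cells and effector T cells that binds cadherins, was uneven in the Sca1-Cre line. Sca1-Cre tumours read 7.43, 5.42, 8.34 and 6.19, pre-tumour spleens 5.39, 7.74 and 6.0, and wild type spleens 5.52, 6.65 and 5.78. Aid-Cre tumours read 5.27, 5.11, 5.85 and 5.78 and Mb1-Cre tumours 6.05, 5.54, 5.22, 5.58 and 5.05. Values above 7 occurred only in 3 arrays of the Sca1-Cre genotype. The Sca1-Cre tumour at 6.19 also lay just above all Aid-Cre and Mb1-Cre values. The remaining arrays of that genotype lay among the Aid-Cre and Mb1-Cre values. The fitted difference to Sca1-Cre tumours was -1.34 ± 0.54 (SE) for Aid-Cre and -1.36 ± 0.52 (SE) for Mb1-Cre tumours, with overlap in both.

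Clec2d, the ligand of Klrb1b and a protein of many blood cells, read 10.07, 9.30, 10.88 and 10.77 in Aid-Cre tumours and 10.83, 10.72, 10.18, 9.91 and 10.24 in Mb1-Cre tumours. Sca1-Cre tumours read 11.22, 11.08, 11.11 and 10.61, pre-tumour spleens 11.05, 11.15 and 11.18, and wild type spleens 10.86, 11.16 and 10.49. The Aid-Cre array with the lowest Clec2d, replicate 2, was the one with the highest Klrb1b. Aid-Cre tumours were 0.58 lower than wild type (-0.58 ± 0.31, SE; limma, adjusted p = 0.648) and Mb1-Cre tumours 0.46 lower (-0.46 ± 0.30, SE; limma, adjusted p = 0.565), both with overlap. T cell genes moved with it: an index of 5 T cell genes averaged 8.25 in Aid-Cre, 8.26 in Mb1-Cre and 9.38 in Sca1-Cre tumours, 9.54 before tumours and 8.88 in wild type.

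BC064078 was highest in Sca1-Cre tumours, next in Sca1-Cre spleens without tumours, and lowest on average in Aid-Cre tumours. Sca1-Cre tumours read 8.64, 8.93, 8.75 and 9.09, with a mean of 8.85 ± 0.20 (SD, n = 4). Pre-tumour spleens read 8.22, 8.32 and 8.38 (mean 8.31 ± 0.08, SD, n = 3) and wild type spleens 8.18, 8.05 and 7.70 (mean 7.97 ± 0.25, SD, n = 3). The 2 Sca1-Cre groups overlapped neither each other nor wild type. Mb1-Cre tumours read 8.19, 8.17, 7.75, 7.93 and 8.06 (mean 8.02 ± 0.18, SD, n = 5), and Aid-Cre tumours 7.67, 7.49, 7.97 and 7.47 (mean 7.65 ± 0.23, SD, n = 4). Mb1-Cre, Aid-Cre and wild type values overlapped one another.

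The fitted difference of BC064078 was 0.88 ± 0.15 (SE) for Sca1-Cre tumours minus wild type, the comparison it was picked from, in which 0.0406% of all genes were called and 6.21% had higher values without overlap. It was 0.33 ± 0.16 (SE) for pre-tumour spleens minus wild type, where 8.35% of genes had higher values without overlap, and 0.55 ± 0.15 (SE) for Sca1-Cre tumours minus pre-tumour spleens, where 3.85% did. Each of these shares arrays with the first. Aid-Cre tumours stood at -1.20 ± 0.14 (SE) and Mb1-Cre tumours at -0.83 ± 0.13 (SE) relative to Sca1-Cre tumours, and 2.96% and 3.37% of genes were lower without overlap in those comparisons. Comparisons that did not involve the Sca1-Cre arrays were tested. Those with wild type share its arrays with the comparison BC064078 was picked from, so they are not independent of that choice. BC064078 did not pass for Aid-Cre against wild type (-0.32 ± 0.15, SE; limma, adjusted p = 0.579), for Mb1-Cre against wild type (0.05 ± 0.14, SE; limma, adjusted p = 0.921) or for Aid-Cre against Mb1-Cre (-0.37 ± 0.13, SE; limma, adjusted p = 0.439).

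Whether these differences followed NK cell content was examined first with the index itself. The NK index read 7.54, 7.08, 8.07 and 7.91 in Aid-Cre tumours, 8.85, 7.47, 7.56, 7.40 and 6.77 in Mb1-Cre tumours. It read 8.24, 7.70, 8.49 and 7.88 in Sca1-Cre tumours, 8.11, 8.22 and 7.89 before tumours and 7.77, 7.94 and 7.47 in wild type. All groups overlapped in the 8 comparisons made. Aid-Cre minus Mb1-Cre was 0.04, the smallest of the differences between lines, while Klrb1c differed by 1.31 in the same comparison. Both Sca1-Cre groups lay 0.35 above wild type. None of the 8 index genes was called against wild type in Aid-Cre or Mb1-Cre tumours, where 0.018% and 0% of all genes were. Of the 8, 3 were higher and 5 lower in Aid-Cre (median -0.16), and 2 higher and 6 lower in Mb1-Cre (median -0.05). Ncr1, the receptor NKp46 of NK cells, was among the higher ones in both. It differed by 0.53 ± 0.47 (SE, limma, adjusted p = 0.812) in Aid-Cre and 0.18 ± 0.45 (SE, limma, adjusted p = 0.901) in Mb1-Cre.

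The second measure was the relation between spleens of the same group. Each value was taken as its deviation from the group mean, and p came from 100000 permutations of the arrays within groups, two-sided, adjusted over the 9 genes. The relation passed for 5 genes: Klrk1 (r = 0.83, permutation adjusted p = 0.00444), Klrd1 (r = 0.78, permutation adjusted p = 0.00444), Klrc1 (r = 0.72, permutation adjusted p = 0.00488), Clec2d (r = 0.65, permutation adjusted p = 0.00913) and Klrg1 (r = 0.57, permutation adjusted p = 0.0018). Spearman's rho was 0.69, 0.76, 0.55, 0.73 and 0.68 in that order, with permutation adjusted p of 0.0151, 0.0111, 0.0385, 0.0126 and 0.0111. The other 4 did not pass: Klrb1f (r = 0.28, rho = 0.33; permutation adjusted p = 0.477 and 0.25), BC064078 (r = 0.21, rho = 0.14; 0.575 and 0.692), Klrb1c (r = 0.15, rho = 0.01; 0.734 and 0.972) and Klrb1b (r = -0.15, rho = -0.22; 0.611 and 0.565). Klrb1c read near background on most arrays outside the Aid-Cre group, and Klrb1b on most arrays of every group. A relation to the index could hardly be detected there.

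Mb1-Cre replicates 5 and 1, with index values of 6.77 and 8.85, lay farthest from the median. Without them, r over 17 arrays was 0.55 for Klrk1, 0.63 for Klrd1 and 0.47 for Klrc1, each with a permutation adjusted p of 0.0737, so these 3 relations did not pass without both arrays, although each passed without either one alone. Clec2d (r = 0.76, permutation adjusted p = 0.0373) and Klrg1 (r = 0.69, permutation adjusted p = 0.0301) still passed. The index is not specific to NK cells in these spleens. Its within-group deviations correlated with those of the T cell index at r = 0.83, against 0.62 with Ncr1 alone. With the T cell index in its place, an alternative added after the data were seen, r was 0.87 for Clec2d, 0.81 for Klrd1, 0.71 for Klrk1, 0.64 for Klrc1 and 0.54 for Klrg1, each with a permutation adjusted p of 0.00313. With Ncr1 in its place only Clec2d passed (r = 0.79, permutation adjusted p = 0.00198). Klrd1 (r = 0.66, permutation adjusted p = 0.0513), Klrk1 (r = 0.55, 0.0586) and Klrb1f (r = 0.54, 0.0586) missed the threshold narrowly. Klrg1 (r = 0.46, 0.106) and Klrc1 (r = 0.40, 0.143) missed it by more. NK cell and T cell content cannot be told apart as the quantity followed by the 5 genes that passed with the NK index. A relation to B cell or total lymphocyte content was not tested.

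**Figure D2:**
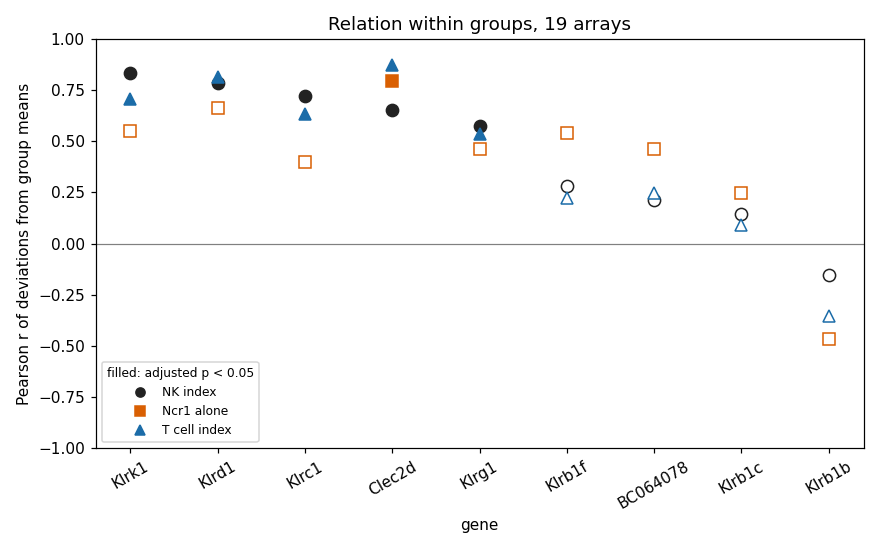
Pearson correlation, over 19 arrays, of each gene's deviations from its group means with those of the NK index (circles), of Ncr1 (squares) and of a T cell index (triangles); filled symbols passed an adjusted permutation p under 0.05. Klrk1, Klrd1, Klrc1, Clec2d and Klrg1 lie between 0.57 and 0.83 for the NK index, and Klrb1f, BC064078, Klrb1c and Klrb1b between -0.15 and 0.28.

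**Figure D3:**
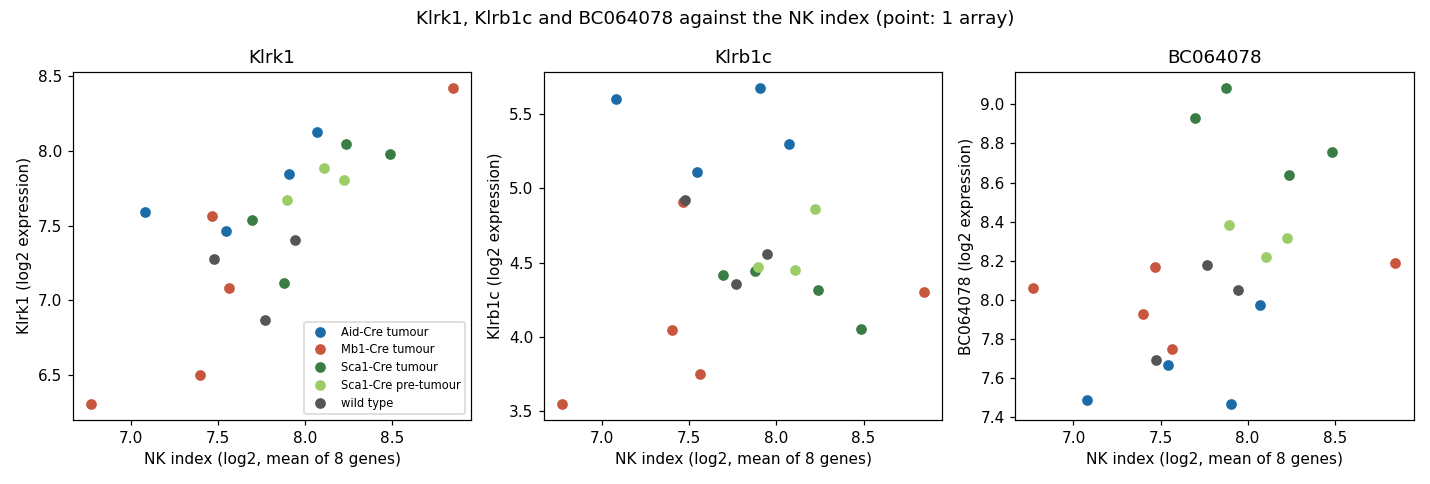
Log2 expression of Klrk1, Klrb1c and BC064078 against the NK index, with 1 point per array coloured by group. Klrk1 rises along the index across groups, while the Aid-Cre points for Klrb1c (5.11 to 5.68) and the Sca1-Cre tumour points for BC064078 (8.64 to 9.09) sit above the others at index values that other groups share.

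With the NK index as a covariate in the fit, the differences of BC064078 stayed close to their size. Each shift is fixed by the index difference and the gene's within-group slope on the index, 0.09 for BC064078 and 0.89 for Klrk1. It therefore restates the within-group relation and is not a further test. For Klrb1c between Aid-Cre and Mb1-Cre tumours the covariate could change little, since the index differed by 0.04 there: the difference was again 1.31 ± 0.22 (SE), and 0.0676% of all genes were called. BC064078 became 0.85 ± 0.15 (SE) for Sca1-Cre tumours minus wild type, -1.17 ± 0.14 for Aid-Cre and -0.79 ± 0.14 for Mb1-Cre minus Sca1-Cre tumours. With the T cell index as the covariate, those 3 differences of BC064078 were 0.84, -1.11 and -0.74. At a given index difference, genes with a steeper slope on the index moved more by construction. Klrk1 in Sca1-Cre tumours minus wild type went from 0.49 to 0.18, and Klrg1 in Aid-Cre minus Sca1-Cre tumours from -1.34 to -0.93. Clec2d in Aid-Cre minus Sca1-Cre tumours went from -0.75 to -0.51, and to -0.07 with the T cell index.

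**Figure D4:**
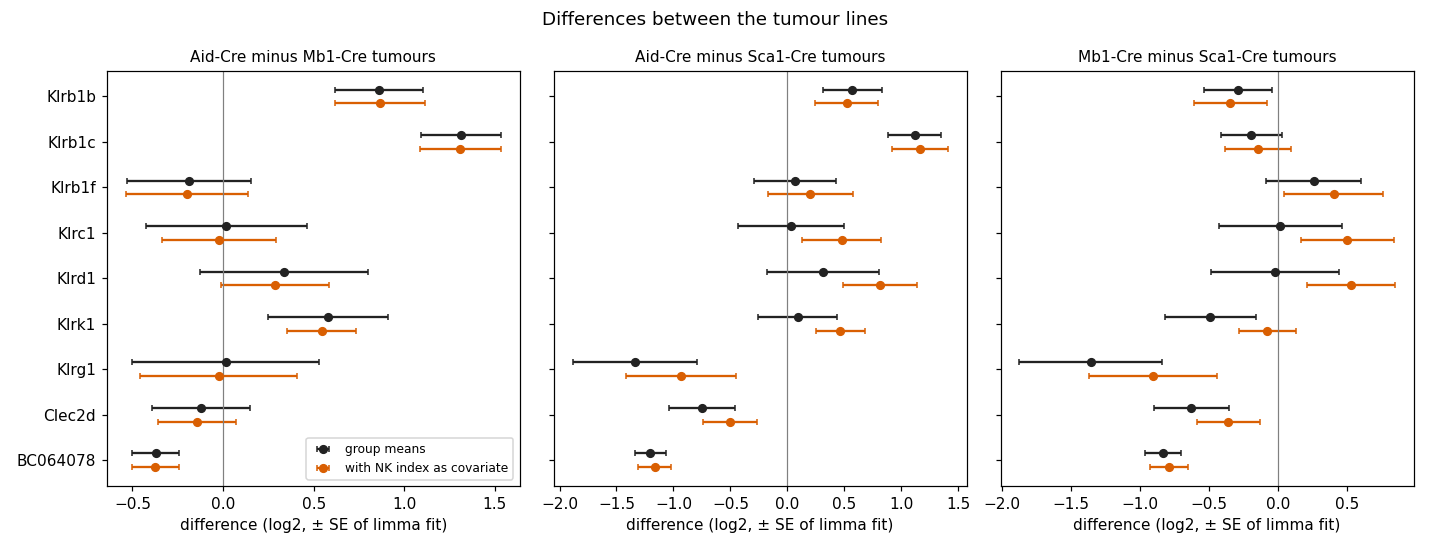
Differences between the tumour lines for the 9 genes, in log2 units with the SE of the limma fit, from group means (black) and with the NK index as covariate (orange). Klrb1c in Aid-Cre minus Mb1-Cre (1.31 in both fits, with an index difference of 0.04) hardly shifts. BC064078 hardly shifts in both comparisons with Sca1-Cre tumours (-1.20 and -1.17, -0.83 and -0.79). Klrg1 in Aid-Cre minus Sca1-Cre goes from -1.34 to -0.93. Each shift is fixed by the index difference and the gene's within-group slope on the index.

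The neighbouring genes showed how far a difference extended along the chromosome. In gene order, Klrb1c and Klrb1b are the 6th and 5th measured genes before BC064078, Klrb1f is the next gene after it and Clec2d the 4th. Of 26 further measured genes of the receptor complex (46 listed), 0 were called in Aid-Cre against Mb1-Cre, beside 0.0451% of all genes. Of the 26, 12 were higher and 14 lower, with a median of -0.02, against a median of 0.01 over all genes. At an unadjusted p under 0.05, 1942 of all genes passed there (limma). Among the larger differences, genes of the complex expressed by myeloid cells were lower in Aid-Cre: Olr1, an oxidised LDL receptor, at -1.48 ± 0.37 (SE), Clec12a, an inhibitory myeloid lectin, at -1.44 ± 0.41, Klra17, a Ly49 family receptor, at -1.29 ± 0.32 and Clec7a, the beta-glucan receptor dectin-1, at -1.15 ± 0.34. None of the 4 passed (limma, adjusted p = 0.271, 0.344, 0.271 and 0.376), and neutrophil markers ranged from 7.20 to 11.41 in Aid-Cre and from 11.30 to 11.77 in Mb1-Cre tumours, with overlap. Their part in these differences was not tested. In the other direction, the Ly49 receptor gene Klra9, named after its values were seen, was 1.25 ± 0.43 (SE; limma, adjusted p = 0.436) and Klrc2 1.01 ± 0.45 (limma, adjusted p = 0.531). Klrc3, next to Klrk1, was 0.54 ± 0.17 (SE) higher in Aid-Cre (limma, adjusted p = 0.379). It read 3.35 to 3.91 in Aid-Cre and 2.75 to 3.63 in Mb1-Cre tumours. These values lay below the 40th percentiles of the arrays (4.72 to 4.90), close to background. So did the Klra9 values of Mb1-Cre tumours, at 3.11 to 4.66.

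In Sca1-Cre tumours minus wild type, BC064078 had the largest difference among the 20 measured genes on either side of it. Of the 26 genes of the complex, 16 were higher and 10 lower, with a median of 0.10 against 0.00 over all genes. Klrc2, an activating partner of Klrd1 outside that window, was -0.92 ± 0.51 (SE). The neighbours with the smallest p were Clec2e (0.20 ± 0.09, SE), Klrb1 (0.53 ± 0.27), the pseudogene Klrb1-ps1 (0.16 ± 0.09) and Pzp (0.12 ± 0.08). Klrb1-ps1 and Pzp are not among the 26. Clec2e, Klrb1-ps1 and Pzp read below the 40th percentiles (4.72 to 4.90) on all 19 arrays, close to background. Of the 26, 0 were called, beside 0.0406% of all genes. The measured gene immediately before BC064078, the long non-coding RNA Gm15987, differed by -0.38 ± 0.41 (SE). The one after BC064078, Klrb1f, differed by 0.11 ± 0.39 (SE). Rosa26, the site of the HGAL transgene, is on the same chromosome, farther from BC064078 than any of the genes described.

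**Figure D5:**
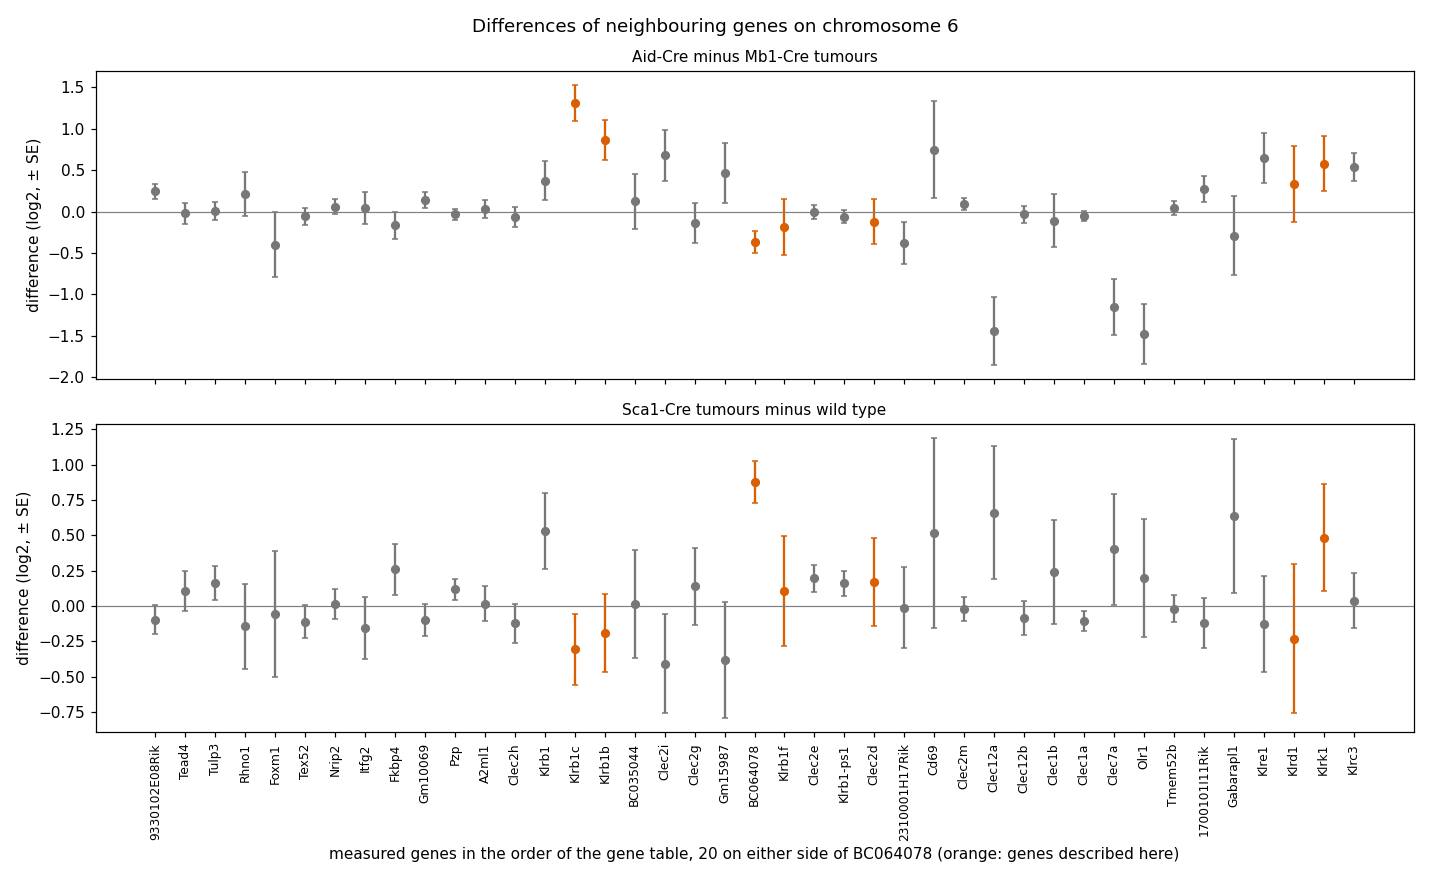
Differences (log2, ± SE of the limma fit) of the 20 measured genes on either side of BC064078 in chromosome order, for Aid-Cre minus Mb1-Cre tumours (top) and Sca1-Cre tumours minus wild type (bottom); orange marks the genes described here. Klrb1c (1.31) and its neighbour Klrb1b (0.86) are the highest in the top panel, Olr1 (-1.48) and Clec12a (-1.44) the lowest, and BC064078 (0.88) is the highest in the lower one.

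Signalling partners and ligands of these receptors gave no called gene in Aid-Cre or Mb1-Cre tumours against wild type or against each other. Over all genes, 0.018%, 0% and 0.0451% were called in those comparisons, in that order. At such shares, lists of this size are hardly apt to hold a called gene. Of 11 measured adaptor and signalling genes, 1 was higher and 10 lower in Aid-Cre than in wild type (median -0.21). In Mb1-Cre tumours 3 were higher and 8 lower (median -0.19). Over all genes, 11400 were higher and 10780 lower in Aid-Cre, and 11106 higher and 11074 lower in Mb1-Cre. All 7 measured B cell markers were lower in both lines (median -1.03 and -1.09), as were all 8 T cell markers (-0.67 and -0.63). Their part in these counts was not tested. Tyrobp (DAP12) and Fcer1g, adaptors of activating receptors in NK and myeloid cells, were 0.75 and 0.72 lower in Aid-Cre than in Mb1-Cre tumours (-0.75 ± 0.28 and -0.72 ± 0.31, SE; limma, adjusted p = 0.469 and 0.516). Of 10 measured ligands, 3 were higher and 7 lower in Aid-Cre and 4 higher and 6 lower in Mb1-Cre, both against wild type. H60b, a ligand of Klrk1, was 0.71 ± 0.21 (SE) higher in Aid-Cre than in Mb1-Cre tumours (limma, adjusted p = 0.373). Clec2i, a Clec2 ligand of Klrb1 receptors, was 1.19 lower in Mb1-Cre tumours than in wild type (-1.19 ± 0.34, SE; limma, adjusted p = 0.232).

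Of 12 measured transcription factors and cytokine genes of NK cell development, 4 were higher and 8 lower in Aid-Cre than in wild type. In Mb1-Cre tumours 5 were higher and 7 lower than in wild type. In these comparisons 0 of the 12 were called, beside 0.018% and 0% of all genes. In Sca1-Cre tumours minus wild type, 9 were higher and 3 lower, with a median of 0.34. There 0 of the 12 passed, beside 0.0406% of all genes. The values were 1.33 ± 0.45 (SE) for Tox, a factor of NK and T cell development, 1.04 ± 0.52 for Eomes and 0.92 ± 0.33 for Id2. Il15, the survival cytokine of NK cells, was 0.79 lower in Aid-Cre than in Mb1-Cre tumours (-0.79 ± 0.27, SE; limma, adjusted p = 0.423). Tox, Eomes and Id2 are also expressed by T cells, whose index was 9.38 in Sca1-Cre tumours and 8.88 in wild type. Their part in these values was not tested.

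Over all 19 arrays, group differences included, the genes whose pattern was most like BC064078 were Nrbf2 (r = 0.92), Casp4 (r = 0.90), Tmem126a (r = 0.88), Glod4 (r = 0.87) and Sar1b (r = 0.87), none of them in the receptor complex. Within groups the same 5 correlated with BC064078 at 0.71, 0.50, 0.76, 0.54 and 0.57. The mean of the other 8 genes was most like Shisal2a (r = 0.85), Rundc3b (r = 0.84), Llgl2 (r = 0.83), Nck2 (r = 0.83) and Bcr (r = 0.82). BC064078 itself had within-group correlations between -0.14 with Klrb1b and 0.39 with Clec2d among the 8 genes. Outside BC064078, the highest pair besides the Klrc1, Klrd1 and Klrk1 group was Klrd1 with Clec2d at 0.71, followed by Klrb1f with Klrg1 at 0.70.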

How the data were processed

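The authors deposited a table of log2 expression for 19 arrays, made with RMA in oligo per the submitters' processing notes, without versions. Values ran from 2.23 to 13.84, with array medians of 5.23 to 5.40. Of 41345 probe sets, 23521 were annotated to 1 gene symbol, 1814 to several and 16010 to none; 23328 were matched to the gene table by identifier. The probe set with the highest mean stood for a gene, leaving 22180 genes, with no filter on dim ones.

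limma 3.58.1 in R 4.3.3 fitted 5 group means over all arrays (14 residual and 2.46 prior degrees of freedom), with Benjamini-Hochberg adjustment, two-sided. Wild type arrays are shared by all comparisons with wild type. Correlations, figures and promoter searches used Python 3.11.15, pandas 2.3.3, numpy 2.4.6, matplotlib 3.10.9 and biopython 1.88. Scripts were tested on simulated data. Gene order and promoters came from RefSeq tables of GRCm38.p6; the array's build was not used.

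Named besides the 9 genes are the index genes, up to 4 genes per list and 5 neighbours of BC064078 by smallest p, and the 5 genes most like BC064078 or the mean of the rest. The genes and lists were chosen with earlier results of these data known. Alternatives covered normalisation, filters, probe set choice, variance model, covariates and left-out arrays.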

Additional observations from a re-analysis of the deposited data

Results flagged for a closer look

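Relative to wild type, Klrb1c read 0.81 in Aid-Cre and -0.50 in Mb1-Cre tumours, neither of which passed (limma, adjusted p = 0.394 and 0.444). The difference between the 2 lines was 1.31, and its test passed just under the threshold with all arrays. BC064078 differed between lines in its departure from wild type, by -1.20 for Aid-Cre and by -0.83 for Mb1-Cre tumours relative to Sca1-Cre tumours. It was chosen for its level in the Sca1-Cre line, so both values are a description. Among 30 sets of values examined (the 9 genes and the NK index in the 3 groups of 4 or 5 arrays), none held a single array far from the rest by Dixon's criterion, by which chance marks about 1 in 20.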

How the results depend on the processing

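Values close to a threshold or to 0 moved with the processing. In Aid-Cre against Mb1-Cre the count of called genes among the 9, 1 as reported (Klrb1c), was 0 with a filter at the median level (which left Klrb1c out), with every probe set tested, with only the compared groups fitted and with sex as covariate; without single arrays it ran from 0 to 1. In comparisons with Sca1-Cre tumours, BC064078 was chosen by those arrays, so its differences are given as a description, without calls. Across 14 other settings it differed by 0.82 to 0.94 for Sca1-Cre tumours minus wild type. The range was -1.24 to -1.09 for Aid-Cre and -0.88 to -0.69 for Mb1-Cre minus Sca1-Cre tumours. Without single arrays these ranges were 0.74 to 0.98, -1.31 to -1.13 and -0.90 to -0.75, in that order. The count following the NK index, 5, was 1 with Ncr1 and 2 without the 2 farthest arrays, and 5 without any single array; r of Klrb1c then turned to -0.25 without those 2 arrays. Calls with the NK covariate, 2 over 8 comparisons, were 1 with the median filter or sex and 0 with only the compared groups (single arrays: 1 to 3). The 8 comparisons include those with Sca1-Cre arrays, so these counts are a description and support nothing. Replicate numbers did not pair the arrays: same-numbered arrays had a mean correlation of -0.086, and 1 of 19 correlated best with its own number. With the replicate block, the only array numbered 5 (Mb1-Cre) adds nothing. The count for Aid-Cre against Mb1-Cre and the calls with the NK covariate were then 0.

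Small differences changed sign. For Aid-Cre against wild type with sex as covariate, Klrb1f was -0.18, Klrc1 -0.040 and Klrd1 -0.15; without single arrays they ran from -0.11 to 0.51, -0.14 to 0.47 and -0.24 to 0.40. For Mb1-Cre against wild type, Klrd1 was 0.11 with the replicate block and 0.35 with the T cell covariate (single arrays: -0.59 to 0.066). Klrk1 was 0.036 after quantile normalisation, 0.074 after cyclic loess, 0.36 with the replicate block, and 0.099 and 0.36 with the NK and T cell covariates. It was 0.0062 without both arrays with pancreatic transcripts (single arrays: -0.32 to 0.21). Without single arrays, BC064078 ran from -0.093 to 0.15 and Klrc1 from -0.16 to 0.47. For Aid-Cre against Mb1-Cre, Klrc1 was -0.0062 after loess, -0.25 with the replicate block, -0.16 with sex and -0.024 with the NK covariate, and Klrg1 -0.095, -0.50 and -0.024 with the block, sex and NK covariate. Without single arrays Klrc1 ran from -0.25 to 0.34, Klrg1 from -0.10 to 0.15 and Clec2d from -0.33 to 0.20. Within groups, r with the NK index ran from -0.40 to 0.14 for Klrb1b and from -0.13 to 0.28 for Klrb1c. The causes were not tested. Signal near background limits Klrb1b and Klrb1c.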
